A study of Mus musculus with 208 samples.

Results

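The lasting effect of perinatal morphine on the resting prefrontal cortex (PFC) of adult mice was read from 22 libraries of neuronal nuclear RNA, 12 from MOR-SAL mice and 10 from SAL-SAL mice, out of 208 libraries in the whole series. Libraries with a total count under 0.5 of the median of all 48 PFC libraries were dropped, which removed 3 libraries from LPS-injected mice and 0 of these 22. The genes described are the 13964 of 46403 listed genes whose mean over the 22 libraries was at least 1 CPM (counts scaled so that every library has the same total). The gene just outside this limit was Mir344c at 0.999732 CPM and the gene just inside was Ckm at 1.00007 CPM.

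All mice were C57BL/6NTac. MOR-SAL dams carried a pump that gave morphine at 10 mg/kg per day, and their pups, raised by drug-naive foster dams, were injected with morphine at 10 mg/kg 2 times a day from postnatal day 1 to day 14. SAL-SAL mice had saline at both steps. As adults, both groups received a saline injection 2 h before the tissue was taken. The MOR-SAL group held 7 females and 5 males and the SAL-SAL group 6 females and 4 males, each from 6 litters. The litter is the first number of an animal's name, as the study's own naming of samples gives it; the deposited labels give the number alone. Each litter had a single exposure and, among these libraries, a single sex, so litter and exposure are nested. Each library came from 1 animal and about 5000 nuclei sorted for NeuN, the protein made by Rbfox3 and carried by most neurons, and it therefore reports nuclear RNA and not the whole cell. The comparison asks whether exposure before and after birth leaves a trace in PFC neurons that is present without any later challenge.

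Morphine acts mainly on the mu opioid receptor, the product of Oprm1. This receptor and its relatives for delta, kappa and nociceptin ligands couple to inhibitory G proteins, which lower cyclic AMP, open inward-rectifier potassium channels and close presynaptic calcium channels. Their natural ligands are cut from the precursors Penk, Pdyn, Pomc and Pnoc. In the PFC, opioid signalling is known for acting on interneurons and for shaping how cortical output to the striatum responds to reward and stress.

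Several libraries stood apart or went against their labels, and results that rest on them are given with and without them. Total counts ran from 6605680 to 19768200, and the number of genes with a count from 10825 to 18184, with the fewest in animals 5-1 and 10-3 of SAL-SAL and 17-2 of MOR-SAL. Summed over the genes checked, Y-linked RNA was at 101 to 287 CPM in PFC libraries labelled male. In libraries of animal 15-2 from other regions it was at most 0.465. The PFC libraries 15-2 and 16-3 of MOR-SAL, labelled female, held 142, within the male range. They also resembled each other (mean chi-square per gene 4.95, Pearson r = 0.991 over genes), as did 1-3 and 3-0 of SAL-SAL (3.36 and 0.993), whereas the next closest of 1128 pairs had 24.1 and the median pair 132. These pairs differed by more than counting noise, which PCR copies can exceed within 1 sample too, so whether each pair holds separate animals cannot be told apart from shared material. Each library was kept as labelled, and fits with each pair summed to 1 library were run as an alternative. In SAL-SAL animal 9-4 the summed markers of oligodendrocytes reached 5183 normalized CPM, against 829 in the next library of that group.

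The labelled tissue was checked against its markers. Slc17a7, the vesicular glutamate transporter of cortical excitatory neurons, had a median of 113 normalized CPM over the 22 libraries, against 6.11 over 21 libraries labelled striatum. It was under 10 normalized CPM in 5 libraries (4-1 and 5-1 of SAL-SAL, 14-1, 15-0 and 16-1 of MOR-SAL), as low as 0.565. At the same time Drd2, a dopamine receptor of striatal projection neurons, had a median of 190 in PFC and 218 in striatum, and Pde10a, a phosphodiesterase abundant in the same neurons, 2808 and 2834. The 12 striatal markers summed to 1179 to 7840 normalized CPM in MOR-SAL (median 4479) and to 1829 to 12290 in SAL-SAL (median 3953), so the groups overlapped throughout. Of the neuronal and glial markers, Tubb3, Nefl, Gfap, P2ry12 and Gpr17 were at 0 in every library. In sorted nuclei, a smaller share of one kind of nucleus and less RNA per nucleus cannot be told apart.

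**Figure D1:**
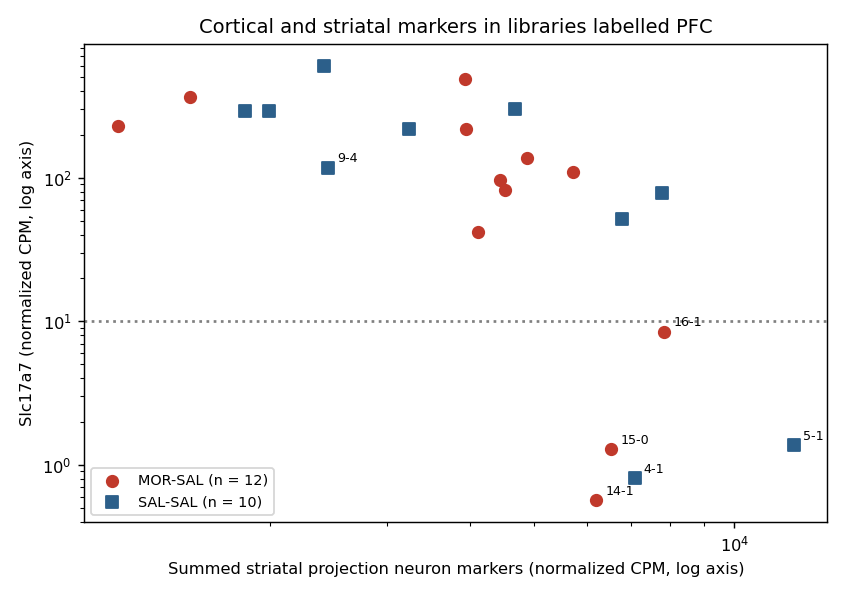
Summed markers of striatal projection neurons (x axis, normalized CPM, log scale) against Slc17a7 (y axis, normalized CPM, log scale) in the 22 libraries labelled PFC, with 1 point per library. The 5 libraries under the dotted line at 10 normalized CPM come from both exposure groups and lie between 6194 and 12290 on the x axis.

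edgeR's quasi-likelihood test with Benjamini-Hochberg adjustment called 0 of 21656 tested genes (0%), the smallest adjusted p was 0.168, and DESeq2 called 19 genes, of which 3 (Ccdc67, Fgfr2 and Olfml1) reach 1 CPM. At an unadjusted p under 0.05 there were 2149 tested genes (9.92%), 1159 higher in MOR-SAL (5.35%) and 990 lower (4.57%). Among the 13964 genes of at least 1 CPM this share was 2.71% (378 genes), with 175 higher (1.25%) and 203 lower (1.45%), while among the 7692 rarer genes it was 23.0%. The balance of higher and lower genes of at least 1 CPM depended on the fit, with 314 higher and 109 lower under a correlation within litters, 246 and 96 with marker sums as covariates, and 167 and 116 without 9-4. There were 0 genes of at least 1 CPM (0%) whose 12 MOR-SAL values all lay on one side of the 10 SAL-SAL values.

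The median log2 fold change (MOR-SAL over SAL-SAL) was -0.00, a centre that TMM scaling sets near 0, with 5% of genes under -0.86 and 5% above 0.83. The median standard error was 0.41, so the precision depended on the level. The 95% confidence interval stayed within a log2 change of 1 either way for 1747 of 1857 genes of at least 100 CPM (94.1%), for 4413 of 7161 genes from 10 to 100 CPM (61.6%) and for 26 of 4946 genes from 1 to 10 CPM (0.526%). A change smaller than that was not detectable at this depth and number of animals for most of the rarer genes.

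**Figure D2:**
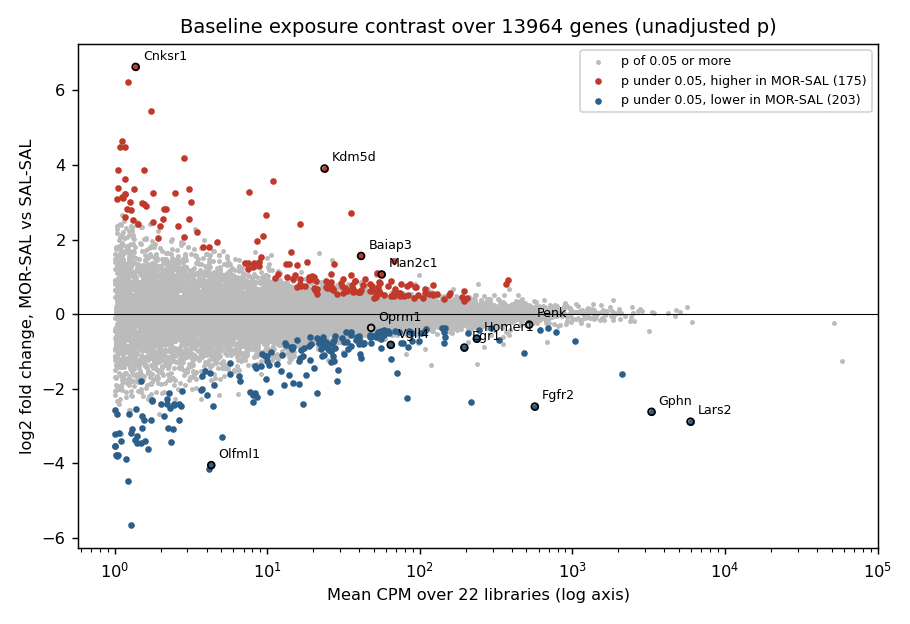
Mean CPM over the 22 libraries (x axis, log scale) against the log2 fold change of MOR-SAL over SAL-SAL (y axis) for 13964 genes, with 1 point per gene. Coloured points have an unadjusted p under 0.05 (175 higher, 203 lower), and none passed the adjusted threshold; labelled genes are described in the text.

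For the opioid system itself, no difference beyond the spread between animals was found. Of the 8 opioid receptor and peptide genes, 4 were higher and 4 lower in MOR-SAL, 0 had an unadjusted p under 0.05, and the median log2 fold change was -0.02. The 95% interval stayed within a log2 change of 1 either way for 1 of the 8. The outermost bounds were -3.42 and 2.31. Oprm1, the receptor that binds morphine, ran from 14.3 to 85.6 normalized CPM in MOR-SAL (median 39.5) and from 21.5 to 133 in SAL-SAL (median 52.8). The ranges overlapped almost entirely, and 5 of 12 MOR-SAL libraries exceeded the SAL-SAL median. Its log2 fold change was -0.37 (SE 0.34, 95% interval -1.05 to 0.32, edgeR unadjusted p = 0.287). Oprd1, Oprk1 and Oprl1, the delta, kappa and nociceptin receptors, had log2 fold changes of 0.09 (SE 0.41), 0.16 (SE 0.43) and 0.23 (SE 0.41). The signs of these values turned with single litters left out, as for Oprk1, at -0.21 without litter 16 of MOR-SAL.

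Among the peptide precursors, Penk, the source of enkephalins, had the most counts. It ran from 92.7 to 1620 normalized CPM in MOR-SAL (median 322) and from 90.2 to 1433 in SAL-SAL (median 379), a log2 fold change of -0.28 (SE 0.47, edgeR unadjusted p = 0.554). The highest Penk value of each group lay in a library with little Slc17a7, 16-1 in MOR-SAL and 4-1 in SAL-SAL. Pdyn, the dynorphin precursor, had medians of 42.6 and 42.4 and a log2 fold change of -0.14 (SE 0.53). Without litter 4 of SAL-SAL, which holds 4-1, Penk was at 0.49 and Pdyn at 0.55. Pnoc, the nociceptin precursor, stood at 0.74 (SE 0.78), and Pomc, the precursor of beta-endorphin, at -1.07 (SE 1.17), with medians of 0.408 and 1.17 normalized CPM.

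**Figure D3:**
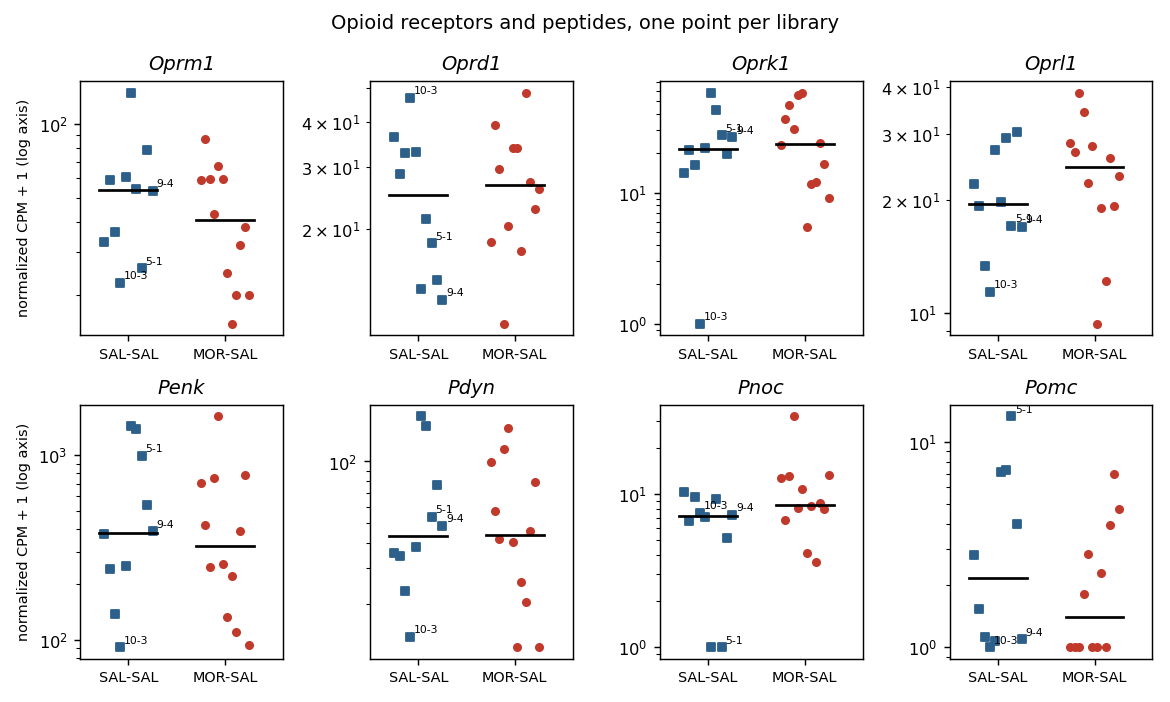
Normalized CPM + 1 (y axis, log scale) of the 4 opioid receptor and 4 peptide genes in each SAL-SAL (squares, 10) and MOR-SAL (circles, 12) library, with a bar at the group median. Every gene's groups overlap, and libraries named elsewhere in the text carry their animal number.

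Downstream of the receptors the picture was similar. Of 27 G protein, RGS, kinase, arrestin and channel genes of opioid receptor signalling, 9 were higher and 18 lower, with a median of -0.08. The single gene at an unadjusted p under 0.05 was Rgs4, which shortens signalling by inhibitory G proteins, at -0.88 (SE 0.35, edgeR unadjusted p = 0.0143). Its values ran from 14.5 to 107 normalized CPM in MOR-SAL (median 57.3) and from 5.30 to 217 in SAL-SAL (median 91.2), and 10-3 of SAL-SAL was the lowest of all. Cacna1b, the presynaptic N-type calcium channel that opioid receptors close, exceeded the SAL-SAL median in 12 of 12 exposed animals, at 0.34 (SE 0.18, edgeR unadjusted p = 0.0684). Of 27 genes of cyclic AMP signalling, 10 were higher and 17 lower, and 0 had an unadjusted p under 0.05.

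Genes of synaptic transmission had medians close to 0. The median log2 fold change was 0.03 over 6 NMDA receptor subunits, 0.04 over 9 AMPA and kainate subunits, 0.00 over 7 metabotropic glutamate receptors, -0.09 over 12 GABA-A subunits and 0.02 over 25 genes of presynaptic release, and these lists together held 1 gene at an unadjusted p under 0.05. That gene was Snap25, part of the SNARE complex that fuses vesicles, at -0.47 (SE 0.22, edgeR unadjusted p = 0.035). The 95% interval stayed within a log2 change of 1 either way for 24 of the 25 release genes, 8 of the 9 AMPA and kainate subunits, 6 of the 7 metabotropic receptors, 4 of the 6 NMDA subunits and 8 of the 12 GABA-A subunits. Gria2, the subunit that sets calcium permeability, was at -0.19 (SE 0.17).

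In the postsynaptic scaffold list, 14 of 20 genes were higher and 6 lower (median 0.09), and Homer1 stood out among them. Homer1, which links metabotropic glutamate receptors to calcium stores and has an activity-induced short form, ran from 107 to 253 normalized CPM in MOR-SAL (median 199.9) and from 205 to 478 in SAL-SAL (median 271). Each of the 12 MOR-SAL values was under the SAL-SAL median, but the groups overlapped between 205 and 253. The log2 fold change was -0.66 (SE 0.20, edgeR unadjusted p = 0.00196, adjusted p over all genes 0.171). The highest SAL-SAL values were in 1-3 and 3-0, the pair of similar libraries; with each such pair summed the value was -0.59.

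Among 21 voltage-gated sodium and calcium channels, 14 were higher in MOR-SAL (median 0.07). Both genes at an unadjusted p under 0.05 were T-type calcium channels, which open near rest and drive burst firing. Cacna1h was at 0.63 (SE 0.28, edgeR unadjusted p = 0.0307), with medians of 197 and 137 normalized CPM, and Cacna1g at 0.77 (SE 0.38, edgeR unadjusted p = 0.045), with medians of 152 and 80.5. For Cacna1h, 12 of 12 MOR-SAL libraries exceeded the SAL-SAL median, and its exons overlap those of Tpsg1 on the other strand. Of 27 monoamine and acetylcholine receptors, 8 were higher and 19 lower (median -0.19), yet the pair at an unadjusted p under 0.05 was higher: Chrm2, a muscarinic receptor, at 0.88 (SE 0.36), and Htr7, a serotonin receptor, at 1.33 (SE 0.60). The 8 genes of the endocannabinoid system had a median of -0.06 and 0 at that level.

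The next list holds genes that follow neuronal activity. Of 24 immediate early genes, which neurons switch on within minutes of firing, 17 were lower and 7 higher, and the median log2 fold change was -0.37, against 7038 lower, 6926 higher and a median of -0.00 over all 13964 genes. One had an unadjusted p under 0.05, where the share over all genes of at least 1 CPM is 2.71%, so nothing particular to the list is read from it. Egr1, a transcription factor of this class, ran from 46.2 to 228 normalized CPM in MOR-SAL (median 119) and from 94.7 to 530 in SAL-SAL (median 209). The top SAL-SAL values again came from 1-3 and 3-0, and 3 of 12 MOR-SAL libraries lay above the SAL-SAL median. Its log2 fold change was -0.89 (SE 0.31, edgeR unadjusted p = 0.00577), and -0.74 with the similar libraries summed. Nr4a1, an orphan nuclear receptor, lay under the SAL-SAL median in 12 of 12 exposed animals, at -0.57 (SE 0.28, edgeR unadjusted p = 0.0508). The list's median was -0.20 in females alone, -0.53 in males alone and -0.22 with the similar libraries summed, and no gene of it passed the adjusted threshold.

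Stress and clock genes gave smaller values. The median was -0.17 over 19 heat shock genes and chaperones (15 lower), -0.18 over 16 clock genes (13 lower) and -0.08 over 17 genes of the glucocorticoid response (9 lower). Hsp90aa1, an inducible chaperone, was at -0.58 (SE 0.29, edgeR unadjusted p = 0.0523). Nr1d2, a repressor in the clock loop, was at -0.51 (SE 0.22, edgeR unadjusted p = 0.0284). Klf9, a glucocorticoid-induced transcription factor, was at -0.37 (SE 0.19, edgeR unadjusted p = 0.0656).

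Metabolic genes lay on both sides of 0. Of 61 genes of oxidative phosphorylation, 29 were higher and 32 lower (median -0.01), and of 22 genes of glycolysis and pyruvate use, 6 were higher and 16 lower (median -0.10). Ndufs1, a core subunit of complex I, was at -0.76 (SE 0.35, edgeR unadjusted p = 0.0326), and its exons overlap those of Eef1b2 and Ino80dos on the other strand. Of 48 ribosomal protein genes, 32 were higher and 16 lower (median 0.12). Rpl22, a protein of the large subunit, was the single one of them at an unadjusted p under 0.05, at 0.91 (SE 0.36), and all 12 MOR-SAL libraries exceeded the SAL-SAL median of 11.4 normalized CPM. Ribosomal proteins have many processed copies in the genome, among which reads can be split, so single values of this list are uncertain.

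No immune or chromatin list held a gene at an unadjusted p under 0.05. Of 9 expressed genes of the inflammatory and interferon responses, 5 were higher and 4 lower (median 0.11). The 7 immune genes that the study discusses for the hypothalamus (Sbno2, Src, Otud5, Il6ra, Arid5a, Ncor1 and Gadd45g) had log2 fold changes from -0.42 to 0.45, and the smallest unadjusted p was 0.0884, for Sbno2 at 0.43 (SE 0.25). Ldha, Grin2c, Fryl, Lamb1 and Tcf4, which it also discusses for the hypothalamus, ran from -0.86 to 0.11. The study's result for Tcf4 is from MOR-LPS against SAL-LPS and not from this saline contrast. Tcf4, a helix-loop-helix transcription factor, was at -0.07 (SE 0.28). The median was 0.09 over 27 genes of histone acetylation and 0.03 over 13 of DNA methylation. The 6 neurotrophin and receptor genes had a median of -0.08.

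**Figure D4:**
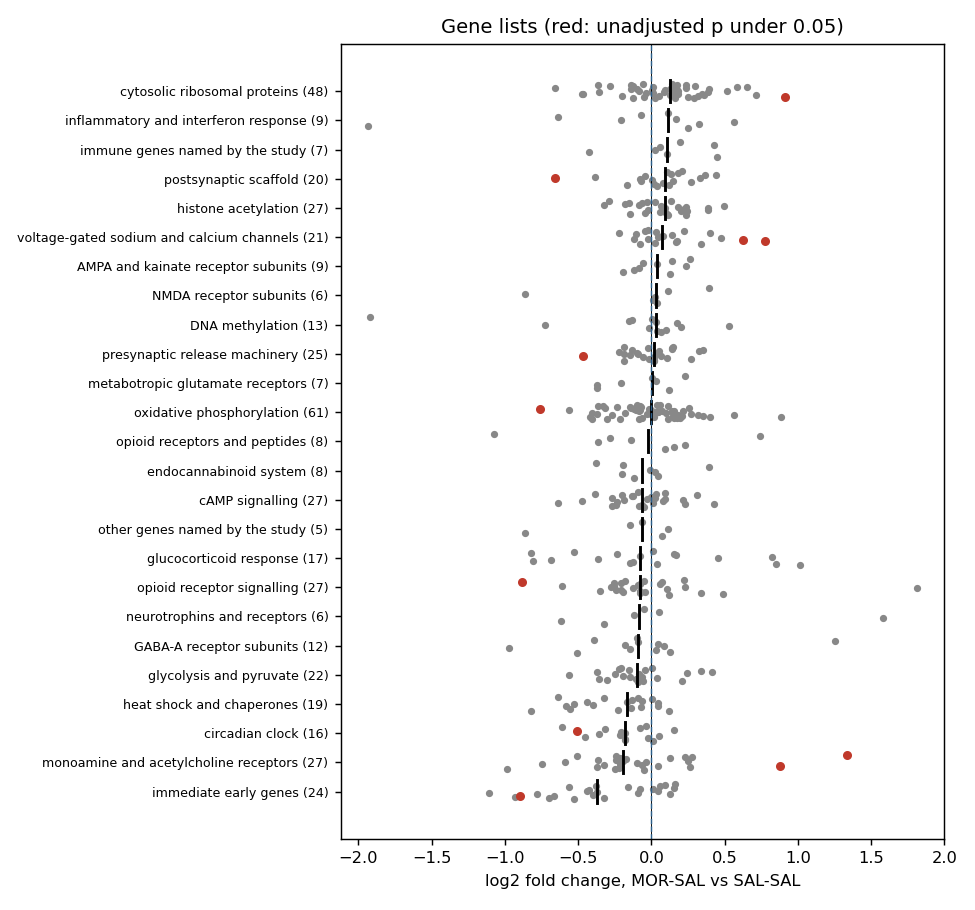
Log2 fold change of MOR-SAL over SAL-SAL (x axis) for each gene of at least 1 CPM in 25 gene lists, with 1 point per gene, a bar at the list's median, and the number of genes in brackets. Red points have an unadjusted p under 0.05; the medians run from -0.37 for immediate early genes to 0.12 for ribosomal proteins.

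The genes with the smallest p-values fell into those shifted in most libraries and those that rested on a few. Man2c1, a cytosolic mannosidase that trims free glycans (chromosome 9, 57130690 to 57142722, mm10), was of the first kind. It ran from 35.0 to 179 normalized CPM in MOR-SAL (median 64.8) and from 18.3 to 67.0 in SAL-SAL (median 34.9). Every MOR-SAL library was above the SAL-SAL median, while 5 of 10 SAL-SAL libraries lay within the MOR-SAL range. The log2 fold change was 1.07 (SE 0.31, edgeR unadjusted p = 0.0011, adjusted p 0.168). Exons of Man2c1 overlap the antisense gene Man2c1os, and how the counting used strand is not given in the sources used here. In the hypothalamus, hippocampus and striatum the value for Man2c1 was -0.01, -0.01 and 0.09, but the difference from PFC did not pass adjustment (limma adjusted p from 0.225 against the hypothalamus to 0.9995 against the hippocampus).

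Zfp740, a zinc finger gene, and Adck5, a member of the aarF kinase family, had the same form. Zfp740 was at 0.96 (SE 0.28), with medians of 53.1 and 25.4 normalized CPM, and Adck5 at 0.89 (SE 0.26), with medians of 45.5 and 26.2, and for both all 12 MOR-SAL libraries exceeded the SAL-SAL median. Without the 5 libraries low in Slc17a7 Adck5 was at 0.58. Exons of Zfp740 overlap Csad, and those of Adck5 overlap Cpsf1 and, on the same strand, 5730521K06Rik. Baiap3, a gene of dense-core vesicle traffic, was spread wider, from 4.65 to 203 in MOR-SAL (median 39.5) and from 6.55 to 59.9 in SAL-SAL (median 11.4). Its value was 1.56 (SE 0.47), and 0.85 without the 5 libraries low in Slc17a7. Zim1, an imprinted zinc finger gene, was at 2.42 (SE 0.74), with medians of 20.9 and 4.11, and 15-0 the highest library of all at 99.8.

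Vgll4, a cofactor of TEAD transcription factors, was shifted the other way. It ran from 33.4 to 82.0 normalized CPM in MOR-SAL (median 51.6) and from 38.8 to 147 in SAL-SAL (median 94.2). Each of the 12 MOR-SAL values was under the SAL-SAL median, and 7 SAL-SAL libraries were above every MOR-SAL library while 1-3, 3-0 and 4-3 were among the lowest. The log2 fold change was -0.82 (SE 0.24, edgeR unadjusted p = 0.00121, adjusted p 0.168). Without the 4 SAL-SAL libraries 10-1, 1-1, 10-3 and 5-1, 3 of which hold its highest values, it was -0.28 with an adjusted p of 0.829 (edgeR).

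Another set, lower in MOR-SAL, rested on 4 SAL-SAL libraries. Fgfr2, a receptor for fibroblast growth factors, had the smallest p of the genes of at least 1 CPM (log2 fold change -2.48, SE 0.57, edgeR unadjusted p = 5.75e-05, adjusted p 0.168). MOR-SAL ran from 89.7 to 500 normalized CPM (median 201) and SAL-SAL from 64.8 to 5333 (median 241). The medians were close, and 10-1, 1-1, 10-3 and 5-1 of SAL-SAL held 1145, 1484, 4691 and 5333, against at most 287 in the other 6. These 4 libraries were also the highest for Lars2, the mitochondrial leucyl-tRNA synthetase (-2.88, SE 0.78, up to 90982), and Gphn, the inhibitory synapse scaffold gephyrin (-2.62, SE 0.65, up to 43744). Without them the values turned to 0.54 for Fgfr2, 1.15 for Lars2 and 0.85 for Gphn. An 18S rRNA entry took 8.43%, 8.92%, 30.9% and 14.0% of counts in 10-1, 1-1, 10-3 and 5-1. In 17-2 of MOR-SAL it took 17.3%, with Fgfr2 at 457 normalized CPM. The part of 18S rRNA in these values was not tested. Exons of Fgfr2 overlap those of Ctbp2 on the same strand. The mitochondrial rRNA mt-Rnr1 was also lower, at -2.42 (SE 0.67), with medians of 5.43 and 12.8 normalized CPM. Each of its 12 MOR-SAL values lay under the SAL-SAL median, and its highest value, 240, was in 5-1. It was at -1.59 without the 4 libraries high in Lars2 and at -0.91 without the 5 libraries low in Slc17a7.

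**Figure D5:**
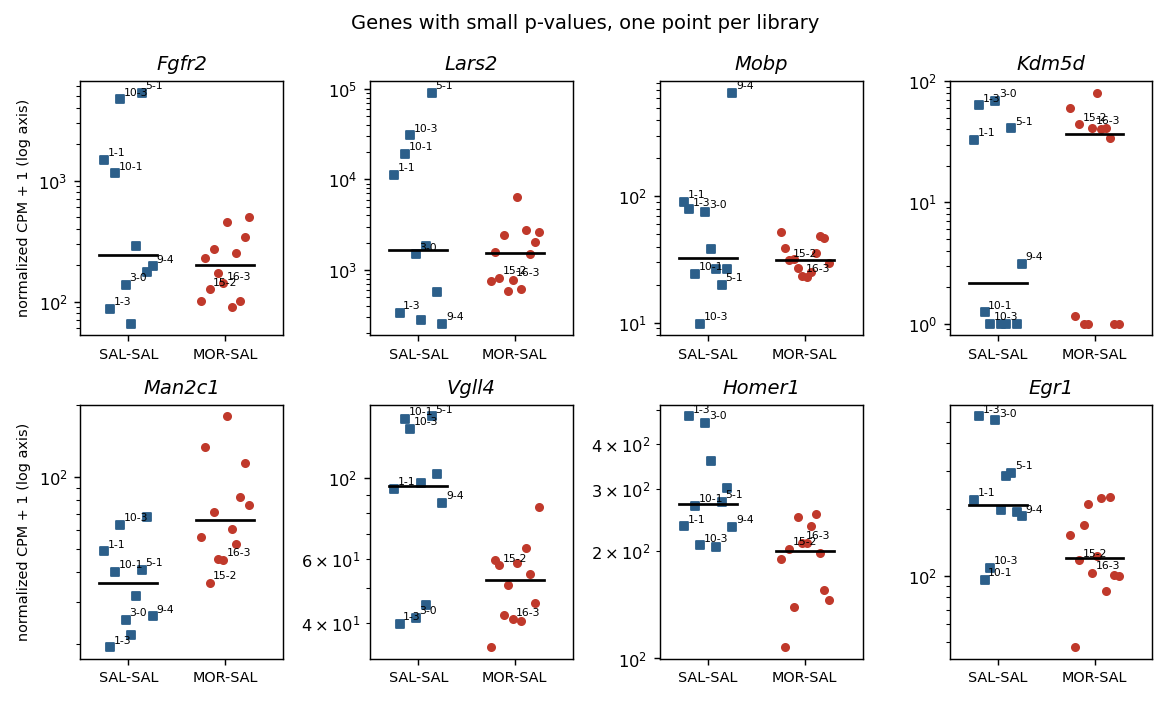
Normalized CPM + 1 (y axis, log scale) of 8 genes with small p-values in each SAL-SAL (squares, 10) and MOR-SAL (circles, 12) library, with a bar at the group median. Fgfr2 and Lars2 are highest in 4 SAL-SAL libraries and Mobp in 9-4. Kdm5d is high in males and in 15-2 and 16-3, which are labelled female. Man2c1 and Homer1 are shifted across most libraries, and Egr1 is highest in 1-3 and 3-0. Vgll4 is shifted across most libraries too, but its highest values lie in SAL-SAL libraries that are also high in Lars2.

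Glial genes formed a further set. Of 10 oligodendrocyte markers, all 10 were lower in MOR-SAL and 8 had an unadjusted p under 0.05, with a median log2 fold change of -1.50. Mobp, a protein of the myelin sheath, ran from 21.9 to 51.4 normalized CPM in MOR-SAL (median 30.4) and from 8.83 to 665 in SAL-SAL (median 31.5). The top value was in 9-4, followed by 1-1, 1-3 and 3-0 at 89.9, 78.2 and 74.5, and the other 6 SAL-SAL libraries lay at or below 37.4. Its value was -1.56 (SE 0.50, edgeR unadjusted p = 0.00295) and -0.32 without 9-4. Without that library the list's median was -0.29, 0 markers had an unadjusted p under 0.05, and Mag, another myelin protein, went from -1.12 to -0.11.

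Summed microglial markers were also highest in 9-4, although Aif1 and C1qa peaked in MOR-SAL. Of 9 microglial markers all 9 were lower (median -1.10), Csf1r, the receptor for colony stimulating factor, among them (-2.22, SE 0.87). Without 9-4 the list's median was -0.41 and Csf1r was at -0.89. The summed microglial markers were 7.76 to 68.3 normalized CPM in MOR-SAL and 14.4 to 299.9 in SAL-SAL. Olfml1 (-4.05, SE 1.04), Ermn, an oligodendrocyte cytoskeletal protein (-3.30, SE 1.08), and Ttyh2, a membrane protein (-2.12, SE 0.59), also had their maximum in 9-4. Their highest values there were 45.8, 61.0 and 202 normalized CPM, and their MOR-SAL maxima were 2.82, 2.38 and 12.7. Without 9-4 their log2 fold changes were -2.95, -2.01 and -1.04. Slc1a2, the astrocytic glutamate transporter, was at -0.70 (SE 0.30) and -0.56 without 9-4. Of 9 astrocyte markers 8 were lower (median -0.92, and -0.53 without 9-4), and S100b, a calcium-binding protein, was at 0.80 (SE 0.96). The 7 oligodendrocyte precursor markers had a median of -0.49 and 0 genes at an unadjusted p under 0.05, with Vcan at 0.28 (SE 0.49) and Cspg4 at 0.17 (SE 0.94), both proteoglycans, on the other side. The 3 endothelial and mural markers had a median of -0.22 and 0 genes at that level. The 4 choroid plexus markers had a median of -0.39 and 1 gene at that level. It was Enpp2, a secreted lysophospholipase, at -1.21 (SE 0.46) and -0.61 without 9-4, its highest library. Kl was also lower, at -1.66 (SE 0.97), while Clic6 (0.43, SE 0.50) and Ttr (1.38, SE 1.55) were higher.

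Markers of 5 cortical and striatal neuron classes gave 0 genes at an unadjusted p under 0.05. Over the 10 cortical excitatory, 8 upper layer, 11 deep layer, 20 interneuron and 12 striatal projection neuron markers, the medians ran from -0.25 to 0.05. The 8 pan-neuronal markers had a median of -0.08 and 1 gene at that level, Snap25, and the 7 thalamic markers a median of 0.48 and 0 genes. Rbfox3 itself was at 0.03 (SE 0.31), from 1028 to 6581 normalized CPM in MOR-SAL and from 759 to 5665 in SAL-SAL.

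The next set was Y-linked. Kdm5d, Eif2s3y and Uty, which are expressed in males alone, were at 3.91, 3.58 and 2.71, and without 15-2 and 16-3, the libraries labelled female with male levels, at -1.08, -1.12 and -2.21. Col9a3, a collagen chain gene, was at 1.67 (SE 0.82), with medians of 16.8 and 3.43 normalized CPM and 8 of 12 MOR-SAL libraries above the SAL-SAL median, and at 1.06 without the 3 libraries under 12000 genes. Rarer genes had larger values. Cnksr1 (6.63, SE 1.79) and Mepe (6.22, SE 1.73) peaked at 32.6 and 34.8 normalized CPM in 17-2 and were at most 3.48 and 1.03 in the other MOR-SAL libraries. Without those 3 libraries, 17-2 among them, they were at 4.44 and 0.61. In SAL-SAL, Cnksr1 and Mepe were at most 0.0913 and 0.156. Both reach the limit of 1 CPM through MOR-SAL alone, so their fold changes carry that selection. Ccdc67, a centriole gene (5.45, SE 1.48), was seen in 10 of 12 MOR-SAL libraries, up to 11.7, and in SAL-SAL no higher than 0.390. The libraries 15-0, 16-3 and 15-2 were at the top, and without 15-2 and 16-3 Ccdc67 was at 4.89. It too reaches 1 CPM through MOR-SAL alone, so its fold change carries the same selection.

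Whether exposure acted differently in females and males was tested as an interaction. edgeR called 0 of 19960 genes (0%), with 1066 at an unadjusted p under 0.05 and a smallest adjusted p of 0.657, and DESeq2 called 5. These fits take sex from the labels, so 15-2 and 16-3 count as 2 of the 7 MOR-SAL females despite their Y-linked RNA. Fitted alone, females gave 334 genes of at least 1 CPM at an unadjusted p under 0.05 and males 247.

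The same exposures after LPS gave a separate contrast with no shared libraries. MOR-LPS against SAL-LPS called 2 of 21656 genes (0.00924%), B020004J07Rik and Gm21984, both named after their values were seen. The log2 fold changes after LPS of Man2c1, Homer1, Vgll4 and Egr1 were -0.44, -0.24, -0.06 and 0.00, against 1.07, -0.66, -0.82 and -0.89 at baseline. Over the 378 genes with an unadjusted p under 0.05 at baseline, 33.6% had the same sign after LPS, and over all 13964 genes 47.1%. No p goes with these shares, because genes are not independent replicates.

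The difference between the exposure effect under saline and under LPS was tested directly. edgeR called 283 of 21656 genes (1.31%), of which 22 reach 1 CPM (0.158% of those genes), and DESeq2 called 37. Among the genes described above, Adck5, Fgfr2, Olfml1, Ttyh2, Mag and Ermn were called. Without 9-4 there were 0 calls, and with only genes of at least 1 CPM in the fit also 0. Summed oligodendrocyte markers were also high in some MOR-LPS libraries: 3465 normalized CPM in 14-4, 2434 in 15-3, 1804 in 18-1 and 1634 in 15-1. Other MOR-LPS libraries were as low as 207 (12-0), and the highest of SAL-LPS held 1152. The part of these libraries in the calls was not tested. For Adck5 the exposure values were 0.89 at baseline and -0.60 after LPS.

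Across regions, the baseline exposure effect in PFC was set against that in each other region, with the animal as a block because many animals gave both. limma called 3 of 13203 genes (0.0227%) against the hypothalamus (Ggt7, Map7d1 and Zswim8, named after their values were seen), 0 of 13373 (0%) against the hippocampus and 0 of 13460 (0%) against the striatum. With only the 14 animals that had both PFC and hypothalamus, 0 were called. At an unadjusted p under 0.05 there were 1353 genes against the hypothalamus, 592 against the hippocampus and 650 against the striatum. Libraries labelled PFC and striatum had close medians of Drd2 (190 and 218 normalized CPM) and Pde10a (2808 and 2834). Slc17a7 differed between them (113 and 6.11). The 0 calls against the striatum therefore cannot be read as agreement between cleanly separate tissues. Y-linked RNA went against the labelled sex in 2 of 23 hypothalamus, 2 of 24 hippocampus and 0 of 21 striatum libraries, and its part in these comparisons was not tested. For Oprm1 the value was 0.32 in hypothalamus, -0.34 in hippocampus and -0.23 in striatum, and the difference from PFC passed in 0 of 3 regions.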

How the data were processed

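Nuclear RNA of NeuN-sorted nuclei was sequenced by the authors with a modified Smart-seq3 protocol. They trimmed reads with Trim Galore 0.6.7, aligned them to mm10 with STAR 2.7.10a, counted reads with STAR against GENCODE vM25, with a check by HTSeq 0.12.4, and deposited raw counts per gene for 46403 genes and the same values as CPM for 46366 genes. The deposited tables carry no molecular identifiers, so depth covers counting error only, and 0 count columns were left unmapped to a sample. Groups, sex and animal numbers came from the labels, and the reading of the first number as the litter from the study's sample naming.

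Here the raw counts of PFC libraries with at least 0.5 of the median total were fitted in R 4.3.3 with edgeR 4.0.16 (genes with a total count above 10, TMM, condition and sex as terms, quasi-likelihood test in its legacy form), contrast MOR-SAL minus SAL-SAL, with Benjamini-Hochberg adjustment over all genes tested. Normalized CPM are CPM scaled by TMM factors. Standard errors are those of the fitted log2 fold change. The exposure effect was compared between regions with limma-voom (limma 3.58.1, statmod 1.5.0), with the correlation within animals as the replicate block.

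Alternatives were DESeq2 1.42.0, other filters, scalings and terms, each sex alone, a correlation within litters (0.0289), litter sums, limma on log2(deposited CPM + 1) and log2(deposited CPM + 0.1), and each library or litter left out. Added after seeing the data were fits without the libraries named as standing apart, with similar libraries summed, with marker sums as covariates, and with sex read from Y-linked genes, and, for saline against LPS, the fit restricted to genes of at least 1 CPM and the bias-adjusted fit. All scripts were tested on simulated counts, where the false calls of the edgeR fits of condition and of saline against LPS lay mostly among genes under 1 CPM.

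Genes were named as the 8 smallest unadjusted p in each direction, the 5 highest and 5 lowest fold changes at 10 CPM or more, the 2 smallest p of each list, opioid and study genes, and leading or low-p markers. The members and lists were chosen with earlier results of these data known. Positions are from GENCODE M21 (mm10); of 104 named genes 103 matched, and exons of 28 overlap a gene on the opposite strand and of 8 a gene on the same strand, where counts are uncertain. Libraries of a group are labelled as separate animals, several from 1 litter, so p-values measure the spread between these libraries. Of the named genes, 2 are not reported here. H3K27ac data are not analysed here.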

Additional observations from a re-analysis of the deposited data

Results flagged for a closer look

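In the SAL-SAL group, 21 of 117 values tested (single genes and marker sums) had 1 library farther from the others than Dixon's 95% limit allows, where chance gives about 1 in 20 for each. The MOR-SAL group has more than 10 libraries and was not tested. Values are normalized CPM.

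In 6 cases the library was 9-4, the highest for Mobp (665, next 89.9), Csf1r (96.6, next 7.77), the oligodendrocyte markers (5183, next 829), the microglial markers (299.9, next 56.6), the choroid plexus markers (419, next 152) and Cnksr1 (0.0913, the others at 0). Enpp2, at 408 in 9-4, made up most of that library's choroid plexus sum. Library 5-1 was the highest for Rps24 (119, next 31.8) and Hlf (486, next 198), and the lowest for Pfkm (48.6, next 104), Faah (0.513, next 19.1) and the summed markers of oligodendrocyte precursors (0.513, next 17.0). Library 10-3 was the lowest for Rgs4 (5.30, next 63.2), Oprk1 (0, next 13.0) and Ntng1 (21.4, next 49.2), and the highest for Irf7 (15.9, next 2.93). Library 4-1 was the lowest for Nr1d2 (15.6, next 52.4) and Klf15 (2.89, next 19.2), and the highest for Uhrf1 (13.5, next 2.27). Single cases were Mepe in 3-0 (0.156, the others at 0), Htr7 in 1-1 (1.13, next 4.79) and Nfkb1 in 9-0 (115, next 72.5).

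For 6 named genes the exposure effect under saline differed from that under LPS in edgeR's interaction test with Benjamini-Hochberg adjustment, given as the log2 fold change at baseline minus that after LPS. The difference was 1.49 for Adck5, -3.19 for Fgfr2, -7.29 for Olfml1, -3.47 for Ttyh2, -3.35 for Mag and -6.18 for Ermn, with adjusted p from 0.0443 to 0.0454. Without 9-4, 0 genes were called in this test.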

How the results depend on the processing

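Of 59 alternatives for the comparison of MOR-SAL with SAL-SAL, 58 also called 0 genes, and DESeq2 called 19, among them Ccdc67, Fgfr2 and Olfml1. The smallest adjusted p ran from 0.133 to 0.249 when each of 22 libraries or 12 litters was left out, and from 0.0943 to 0.971 in the other alternatives apart from DESeq2. Leaving out a library or litter gave 283 to 514 genes of at least 1 CPM at an unadjusted p under 0.05, against 378, and leaving out the 4 libraries high in Lars2 gave 724. In the interaction of exposure and sex DESeq2 called 5 genes. For the exposure effect under saline against under LPS, DESeq2 called 37, the fit restricted to genes of at least 1 CPM 0, the bias-adjusted fit 32, and the fit without 9-4 0, against 283. Against the hypothalamus, 3 genes were called with the animal as replicate block and 3 without the block, and 0 with only animals that had both regions, where fewer samples entered. Hippocampus and striatum gave 0 in each of these fits. The correlation within animals was 0.0344, 0.0190 and 0.101 in these regions. No paired analysis of MOR-SAL against SAL-SAL was possible because no litter held both exposures, and replicate numbers name animals.

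The comparison held 22 libraries from 12 litters, each litter with 1 exposure, and rare genes had counts in few libraries. Of 102 genes chosen by the naming rule, those that took the other sign under an alternative are given with their log2 fold change, and the cause was not tested. Single cases were Rbfox3 -0.0043 with DESeq2, Rbfox3 -0.0043 with the size factors of DESeq2, Adarb2 0.096 with library size as the only scaling, Adarb2 0.015 with no filter on low counts, Adarb2 0.017 with the filterByExpr filter and Adarb2 0.011 with only MOR-SAL and SAL-SAL libraries in the fit. Without a sex term the values were Eif2s3y -0.019 and Uty -0.20. In females alone the values were Src -0.26, Ncor1 -0.037, Fryl -0.056, Rbfox3 -0.12, Camk2a -0.036, Cdh13 -0.15 and Hs3st4 -0.021. In males alone the values were Kdm5d -0.017, Eif2s3y -0.62, Uty -0.75, Ldha 0.024, Oprd1 -0.0065, Oprk1 -0.50, Oprl1 -0.19, Pdyn 0.013, Gadd45g -0.50, Lamb1 -0.018, Tcf4 0.091, Adarb2 0.080 and Slc2a1 0.27. In limma-voom with a correlation within litters the values were Eif2s3y -0.020, Uty -0.69, Grm8 -0.0019, Grin2c 0.14, Ncor1 -0.011, Hs3st4 -0.0091, Adarb2 0.046, Slc2a1 0.56, Cldn11 0.18 and Mal 0.24. With counts summed over litters the values were Ldha 0.0020, Pdyn 0.051, Otud5 -0.012, Lamb1 -0.037, Rbfox3 -0.083, Hs3st4 -0.030 and Slc2a1 0.014. In limma on log2(CPM + 1) the values were Tcf4 0.080, Pde10a 0.036, Adarb2 0.094, Slc2a1 0.30 and Mal 0.0013. In limma on log2(CPM + 0.1) the values were Uty -0.022, Grin2c 0.059, Il6ra 0.00072, Tcf4 0.080, Pde10a 0.036, Adarb2 0.094, Slc2a1 0.65, Cldn11 0.28 and Mal 0.45. Without 15-2 and 16-3 the values were Kdm5d -1.08, Eif2s3y -1.12, Uty -2.21, Grm8 -0.11, Oprk1 -0.15, Otud5 -0.015, Hs3st4 -0.20 and Slc2a1 0.098. With similar libraries summed the values were Otud5 -0.0054, Rbfox3 -0.071, Hs3st4 -0.078 and Slc2a1 0.034. Without the 5 libraries low in Slc17a7 the values were Ldha 0.0018, Oprd1 -0.040, Pomc 0.13, Fryl -0.049 and Adarb2 0.11. Without 9-4 the values were Rbfox3 -0.072 and Slc2a1 0.17. Without the 3 libraries under 12000 genes the values were Mgll 0.069, Ncor1 -0.075, Pde10a 0.022 and Vcan -0.24. Without the 4 libraries high in Lars2 the values were Fgfr2 0.54, Gphn 0.85, Lars2 1.15, Rps24 0.017, Mgll 0.30, Oprk1 -0.18, Ncor1 -0.034, Tcf4 0.013, Pde10a 0.046, Adarb2 0.24 and Vcan -0.042. With marker sums as covariates the values were Pdyn 0.090, Il6ra 0.25, Rbfox3 -0.0057, Camk2a -0.041, Hs3st4 -0.041, Slc2a1 0.17, Mag 0.19, Mobp 0.11, Cnp 0.058 and Mal 0.66. With sex read from Y-linked genes the values were Kdm5d -1.05, Eif2s3y -0.97, Uty -2.08, Otud5 -0.00058, Ncor1 -0.0013, Rbfox3 -0.014, Hs3st4 -0.027 and Adarb2 0.12.

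With 1 library or litter left out, 18 of the 102 genes took the other sign at least once, with ranges of Ldha (-0.29 to 0.33), Oprd1 (-0.066 to 0.40), Oprk1 (-0.21 to 0.67), Oprl1 (-0.0071 to 0.37), Penk (-0.66 to 0.49), Pdyn (-0.37 to 0.55), Gadd45g (-0.16 to 0.35), Otud5 (-0.0063 to 0.16), Ncor1 (-0.060 to 0.057), Lamb1 (-0.034 to 0.35), Tcf4 (-0.26 to 0.10), Pde10a (-0.34 to 0.066), Rbfox3 (-0.12 to 0.27), Camk2a (-0.049 to 0.13), Cdh13 (-0.016 to 0.40), Hs3st4 (-0.055 to 0.24), Adarb2 (-0.091 to 0.15) and Slc2a1 (-0.26 to 0.17).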
